A study of Mus musculus with 3 samples.

Results

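Vascular smooth muscle cells wrap the arterioles that feed the dorsal root ganglion (DRG), the cluster of sensory neurons and glia beside the spinal cord. They were picked out here from single-cell RNA sequencing of L3 and L4 DRGs as the cells that carried transcripts of smooth muscle myosin heavy chain (Myh11) or smooth muscle α-actin (Acta2). Of 9662 cells kept from 3 libraries, 306 met the rule. The naïve library gave 96 of them, the library taken 7 days after spared nerve injury (SNI) gave 75, and that taken 14 days after SNI gave 135. Each library pooled 8 DRGs from 2 male C57BL/6J mice aged 13 weeks, with wild type genotype. The naïve mice were untreated, and in the injured mice SNI, in which branches of the sciatic nerve are cut and one is left intact, was made in both hindlegs. All mice were perfused before dissection, and whole ganglia were dissociated with collagenase and dispase. With 1 library per condition there was no replicate, so every difference between conditions compares pools of mice. No test between conditions could be made, and the 95% intervals given cover counting error only.

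The cells were chosen by their counts of unique molecular identifiers (UMIs, each standing for 1 captured transcript). To be kept, a cell needed 500 or more detected genes and no more than 20% of its UMIs from mitochondrial genes. A member had at least 1 UMI of Myh11 or at least 3 UMIs of Acta2, and at least 1 UMI of 2 or more among the mural genes Acta2, Tagln, Myh11, Notch3 and Rgs5. It had at most 1 UMI of the endothelial genes Pecam1 and Cdh5 together and none of the fibroblast genes Lum and Pdgfra. It also had at most 1 UMI of the Schwann cell genes Mag and Prx together, and at most 1 UMI of the neuronal genes Snap25 and Rbfox3 together. The first condition took in 433 cells and the last left 306. Levels of these genes are therefore given as a description of the selection.

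Smooth muscle cells shorten when calcium, entering through voltage-gated channels or released from stores, drives phosphorylation of myosin light chains. The contractile genes are switched on together by serum response factor and its partner myocardin, while signalling through Notch3, the Notch receptor of mural cells, keeps arterial smooth muscle in its mature state. Pericytes sit on capillaries, share Notch3, Pdgfrb and Rgs5 with smooth muscle, and carry less of the contractile machinery.

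The libraries held 3748, 3281 and 4908 barcodes and 23107376, 22343246 and 36550911 UMIs in the order naïve, 7 days and 14 days. Member cells supplied 364109, 441945 and 640211 of those UMIs, with median counts per cell of 3798, 5855 and 4482 UMIs. Cells were less deeply covered in the naïve library, and their median mitochondrial share was lower (11.4% against 13.6% at both times, and 7.95%, 9.85% and 11.7% in the pericyte-like members described below). Pairs of libraries shared between 1 and 5 kept barcodes, and 0 of these belonged to member cells. Scrublet, a doublet caller, marked 90 of the kept cells and 4 of the members. Marker transcripts of other cell types were present in member cells at low levels, apart from those of fibroblasts and satellite glia. Levels are given as CPM, the UMIs of a gene or list summed over the cells of a group, divided by all UMIs of those cells and multiplied by 1000000. The summed levels ranged from 394 to 484 CPM for 14 endothelial markers, from 437 to 801 for 12 Schwann cell markers, from 129 to 186 for 12 neuronal markers and from 10.99 to 33.9 for 12 macrophage markers. The 12 fibroblast markers summed to between 894 and 993, with Lum, Pdgfra, Dpt, Clec3b and Scara5 at 0. The 12 satellite glia markers summed to 1824 in naïve cells, 4768 at 7 days and 2971 at 14 days, and their part in the results below was not tested beyond the values given with the glial transcripts.

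The member cells did not form a single population. When all kept cells were clustered, 196 of the 306 members fell in a cluster led by Acta2, Myh11, Tagln, Mylk, Tpm2 and Pln, named smooth muscle-like. Another 109 members fell in a cluster led by Ifitm1, Vtn, Abcc9, Adra2a, Notch3, Rgs5 and Kcnj8, which is named pericyte-like. The remaining member, a 7-day cell of 16487 UMIs, lay in a cluster led by the glial gene Fabp7 and held 210 Fabp7 UMIs against 1 Myh11 UMI and 0 Acta2 UMIs. The label of smooth muscle thus held for the first group and went against the second. In the pericyte-like cluster 84 of 109 members (77.1%) had 0 Acta2 UMIs, and 64 of 109 (58.7%) entered with exactly 1 Myh11 UMI. In the smooth muscle-like cluster 0 of 196 members lacked Acta2, which allows a share of up to 1.53% by a floor of 3 cells (Clopper-Pearson upper bound 1.86%).

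**Figure D1:**
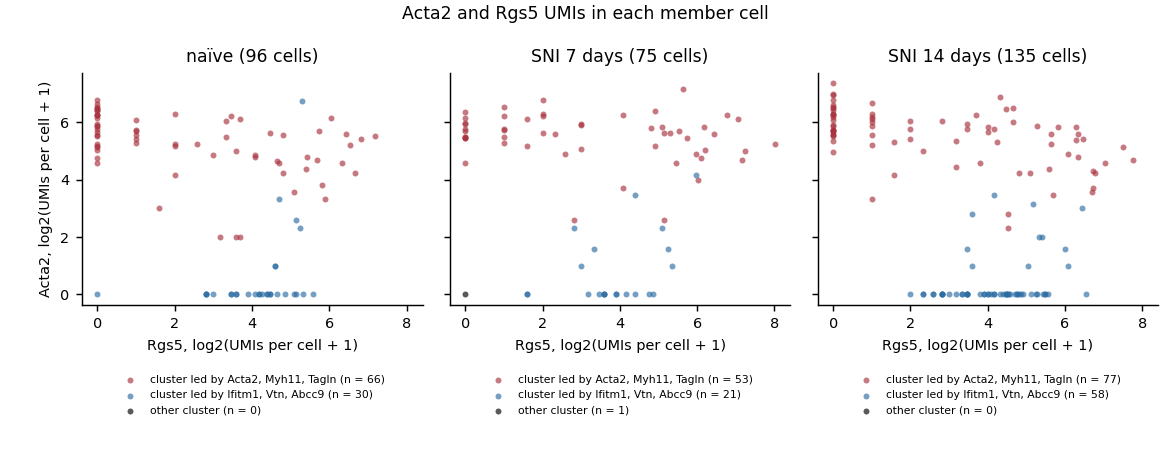
Each point is 1 member cell, placed by its Rgs5 UMIs (horizontal axis) and Acta2 UMIs (vertical axis), both as log2(UMIs per cell + 1), in the naïve, 7-day and 14-day libraries. Cells of the smooth muscle-like cluster (red) keep Acta2 at any level of Rgs5, while cells of the pericyte-like cluster (blue) carry Rgs5 and mostly no Acta2.

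Within the smooth muscle-like cluster the median member of the naïve, 7-day and 14-day libraries held 43, 49 and 51 UMIs of Acta2. The median count of Tagln, which encodes the actin-binding protein transgelin, was 29, 34 and 31 UMIs. The median count of Myh11 was 18, 31 and 26 UMIs. In members of the pericyte-like cluster the median count of Acta2 was 0 UMIs in each library and that of Myh11 was 2, 1 and 1 UMIs, while the median of Rgs5 was 20, 14 and 18 UMIs. A single naïve member of the pericyte-like cluster stood apart with 107 Acta2, 76 Tagln and 36 Cnn1 UMIs, and Scrublet called it a doublet. Free RNA can give such UMIs to cells that do not make them. In 3767 Schwann cells defined by an analogous rule, 0.717% had a Myh11 UMI, 2.26% an Acta2 UMI and 19.7% a Tagln UMI. Of 766 endothelial cells defined likewise, with at most 2 Acta2 UMIs allowed, 4.05% had an Acta2 UMI and 6.66% a Tagln UMI. How much of these shares is free RNA and how much the cells make themselves was not tested.

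The limit on Myh11 cut through the pericyte-like cluster. Just inside the limit lay 63 cells with 1 Myh11 UMI and at most 2 Acta2 UMIs, of which 62 were in the pericyte-like cluster. Their summed level of Rgs5 was 6777 CPM and that of Notch3 was 2069. Just outside lay 15 cells with 0 Myh11 UMIs and 1 or 2 Acta2 UMIs, 12 of them in the pericyte-like cluster, with Rgs5 at 4140 and Notch3 at 1829 CPM. A further 88 cells met all other limits with 0 UMIs of both genes, and 82 of them were in the pericyte-like cluster. Summed over the 88, Rgs5 was at 5622 and Notch3 at 1751 CPM. Results are therefore given for all members and, beside them, for the members of the smooth muscle-like cluster.

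Member cells made up 3.05% of kept cells in the naïve library (96 of 3152, Clopper-Pearson interval 2.47 to 3.71%). They made up 2.80% at 7 days (75 of 2682, 2.21 to 3.49%) and 3.53% at 14 days (135 of 3828, 2.97 to 4.16%). The 3 intervals overlapped. The cells of the smooth muscle-like cluster, member or not, took 2.25%, 2.05% and 2.06% of kept cells, so their share was near level. Those of the pericyte-like cluster took 1.90%, 1.86% and 2.64%. The pericyte-like cluster held 31.3% of members in naïve mice (interval 22.2 to 41.5%), 28.0% at 7 days (18.2 to 39.6%) and 43.0% at 14 days (34.5 to 51.8%). These intervals overlapped. Most of the higher 14-day count of members lay in that cluster. These are shares of captured cells.

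The contractile proteins that define smooth muscle have promoters in which serum response factor binds a CArG box. The 300 bases around the start of each gene, 250 before and 50 after it, were read from RefSeq on GRCm38.p6 and searched on both strands for the CArG box. Of 27025 genes with such a sequence, 488 (1.81%) held one, and of 2942 genes measured above the level filter in member cells 72 (2.45%) did. A match describes letters only and is not a binding site. Among 27 genes of the contractile list with Myh11, Acta2 and Tagln, 23 had a promoter sequence and 2 of these (8.70%) held the box, Myl9 and Vcl. Myh11 and Tagln were among the genes without a promoter sequence, so neither was searched. Among the 25 genes highest in the smooth muscle-like over the pericyte-like members, 19 had a promoter sequence and 3 (15.8%) held it: Asb2, Fbxl22 and Ldb3. Of the 25 genes highest in the opposite direction 1 of 19 (5.26%) did. These counts are small. The promoters of a contractile gene and of the 3 genes of the smooth muscle-like side are shown, with the box in capitals.

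Myl9 (regulatory myosin light chain), chr2:156775214-156775513, plus strand, with the box 161 bases before the start, reads 5′ to 3′ as follows, and the other promoters follow it in the same direction. Asb2 (a ubiquitin ligase adaptor of muscle) is at chr12:103355952-103356251, minus strand, with the box 64 bases before the start. Fbxl22 (an F-box protein of the sarcomere) is at chr9:66514544-66514843, minus strand, with the box 222 bases before it. Ldb3 (a Z-disc protein) is at chr14:34588632-34588931, minus strand, with the box 35 bases before the nearer of its annotated starts.
Myl9: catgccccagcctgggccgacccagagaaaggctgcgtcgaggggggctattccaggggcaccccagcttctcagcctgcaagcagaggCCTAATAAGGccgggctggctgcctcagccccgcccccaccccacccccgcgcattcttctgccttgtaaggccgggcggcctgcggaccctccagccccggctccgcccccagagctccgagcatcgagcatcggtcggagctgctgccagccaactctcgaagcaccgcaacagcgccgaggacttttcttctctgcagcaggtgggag
Asb2: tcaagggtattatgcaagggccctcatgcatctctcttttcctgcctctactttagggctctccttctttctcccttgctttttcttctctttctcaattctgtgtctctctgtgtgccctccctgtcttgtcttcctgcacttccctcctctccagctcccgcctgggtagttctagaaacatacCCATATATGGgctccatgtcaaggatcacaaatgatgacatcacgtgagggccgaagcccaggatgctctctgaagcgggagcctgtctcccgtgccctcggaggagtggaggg
Fbxl22: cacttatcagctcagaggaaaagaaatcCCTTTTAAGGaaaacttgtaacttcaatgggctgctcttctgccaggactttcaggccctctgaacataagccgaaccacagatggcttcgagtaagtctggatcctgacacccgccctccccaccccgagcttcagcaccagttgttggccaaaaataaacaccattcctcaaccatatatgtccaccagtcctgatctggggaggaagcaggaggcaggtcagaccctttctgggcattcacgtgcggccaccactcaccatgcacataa
Ldb3: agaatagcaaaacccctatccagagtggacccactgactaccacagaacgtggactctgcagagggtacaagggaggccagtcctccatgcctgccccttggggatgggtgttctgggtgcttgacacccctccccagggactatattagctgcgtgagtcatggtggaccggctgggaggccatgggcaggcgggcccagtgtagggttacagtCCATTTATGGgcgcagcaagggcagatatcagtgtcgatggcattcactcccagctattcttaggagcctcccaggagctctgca

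Levels of each gene were compared between libraries, and sets of 3 values below stand in the order naïve, 7 days and 14 days. A gene was counted as higher or lower when its level differed at least 2-fold after adding 1 CPM, among genes with a mean of at least 50 CPM. By this rule of size 1.38% of the 3701 genes tested were higher and 0.757% lower at 7 days in member cells. At 14 days 1.73% were higher and 0.594% lower. At both times 22 genes (0.594%) were higher and 4 genes (0.108%) lower. For the smooth muscle-like cluster 3511 genes were tested, of which 1.74% were higher and 1.05% lower at 7 days, 1.79% higher and 0.797% lower at 14 days, and 0.712% higher and 0.142% lower at both. The large majority of genes thus lay within 2-fold of naïve, and the median log2 ratio of all genes tested was -0.03 at 7 days and 0.00 at 14 days. The genes called in all members and in the cluster overlapped only in part. Of the 51 and 64 genes higher in all members at 7 and 14 days, 34 and 31 were also higher in the cluster. For the 28 and 22 lower genes, 20 and 13 were shared. At both times 13 of the 22 higher genes and 2 of the 4 lower genes were shared.

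The contractile apparatus kept its order of magnitude after injury. Of 24 listed genes 23 passed the level filter, and their median log2 ratio to naïve was -0.22 at 7 days and -0.21 at 14 days. Of the 23 genes 1 was at least 2-fold lower at 7 days, and 0 were at least 2-fold higher or lower at 14 days, while 7 of 23 were above naïve at each time. The medians of the smooth muscle-like cluster were -0.22 and -0.11.

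Acta2, the actin of the thin filament, was at 8533 CPM in naïve members, 6198 at 7 days and 6504 at 14 days. The naïve level was the highest of the 3, and the intervals of the log2 ratios lay below 0 (-0.54 to -0.39 at 7 days, -0.46 to -0.32 at 14 days). In the smooth muscle-like cluster alone Acta2 was at 10128, 7259 and 8600 CPM. Tagln was at 5325, 4482 and 3953 CPM, and at 6250, 5266 and 5172 within that cluster, again with the naïve library highest. Myh11, the myosin motor, was at 3573, 3700 and 3282 CPM in all members and at 4207, 4305 and 4179 within the cluster, where the 3 libraries were nearly level. As these 3 genes belong to the rule that chose the cells, their levels are a description.

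Genes outside the rule gave the same range. The regulatory light chain Myl9 was at 4559, 3799 and 3949 CPM and Mylk, its kinase, at 3510, 3145 and 2726. Tropomyosin 2 (Tpm2) was at 2367, 1677 and 1703 CPM, a log2 ratio of -0.50 and -0.48, whereas tropomyosin 1 (Tpm1) was at 2573, 2675 and 2768. Smoothelin (Smtn), a marker of the contractile state, was at 412, 337 and 416 CPM, and leiomodin (Lmod1), which nucleates actin filaments, at 530, 448 and 425. Of the paralogous tropomyosins, Tpm2 was thus lower after injury and Tpm1 near its naïve level.

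Calponin (Cnn1), which restrains the myosin motor, was the contractile gene past the filter that was at least 2-fold lower at 7 days. It had 93, 34 and 87 UMIs in member cells, or 255, 76.9 and 136 CPM. The log2 ratio was -1.73 at 7 days (interval -2.34 to -1.15) and -0.91 at 14 days (-1.35 to -0.47). The naïve cell of the pericyte-like cluster called a doublet alone gave 36 of the 93 naïve UMIs (38.7%). In the smooth muscle-like cluster, which does not hold that cell, Cnn1 was at 194, 91.5 and 182 CPM, with log2 ratios of -1.08 (-1.74 to -0.44) and -0.09 (-0.59 to 0.41). The lower level at 7 days was seen in both groups of cells, and at 14 days the interval of the cluster included 0.

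**Figure D2:**
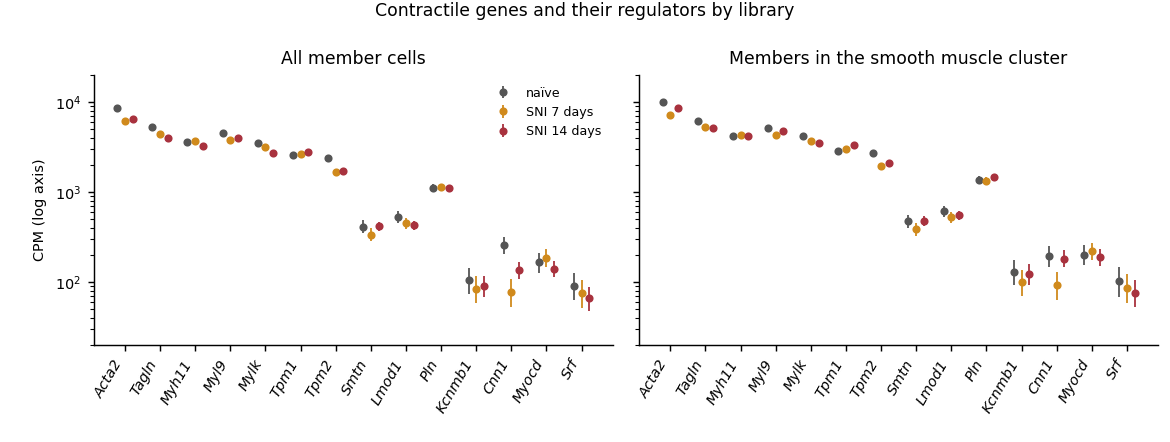
Points are CPM on a log axis for contractile genes, Pln, Kcnmb1, Myocd and Srf in each library, with exact Poisson 95% intervals, for all member cells (left) and members of the smooth muscle-like cluster (right). The libraries lie close together for nearly every gene, and Cnn1 is lowest at 7 days in both panels.

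Genes of calcium handling, ion channels and vascular tone were near their naïve levels. Of 17 channel and calcium genes past the filter the median log2 ratio was -0.06 at 7 days and -0.10 at 14 days, and 1 was at least 2-fold higher at 14 days. Phospholamban (Pln), the brake on the calcium pump of the sarcoplasmic reticulum, was at 1110, 1127 and 1097 CPM. The L-type channel subunit Cacna1c was at 140, 170 and 173, and Kcnmb1, a subunit of the large-conductance potassium channel, at 104, 83.7 and 90.6. The gene past 2-fold was Kcnj8, a subunit of the potassium channel gated by ATP, at 68.7, 72.4 and 145 CPM. Its UMIs lay mostly in the pericyte-like members, with 6.80, 2.69 and 2.09 CPM in the smooth muscle-like cluster. In pericyte-like members it was at 329, 576 and 571 CPM. These members were also a larger share of the member cells at 14 days, with overlapping intervals, and the part of that share was not tested.

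Of 26 receptors and effectors of vasoconstriction 9 passed the filter, with medians of -0.05 and -0.23 and 0 past 2-fold in either direction. The endothelin receptor Ednra was at 415, 367 and 355 CPM and the neuropeptide Y receptor Npy1r at 709, 758 and 525. The angiotensin receptor Agtr1a was at 115, 111 and 200 CPM in all members, but at 17.0, 37.7 and 25.1 in the smooth muscle-like cluster and at 530, 651 and 720 in pericyte-like members. The adrenergic receptor Adra2a divided in the same way, with 3.399, 5.38 and 2.09 CPM against 859, 1134 and 968. Adra1d had 0 UMIs in each library. Among the members, then, transcripts of these angiotensin and α2 receptors lay mostly in the pericyte-like cells.

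The arm that relaxes the vessel was represented by 11 genes past the filter of 24, with medians of 0.08 and 0.09 and 0 past 2-fold. The nitric oxide receptor subunit Gucy1a1 was at 1115, 1097 and 1028 CPM. The phosphodiesterase Pde5a, which breaks down the cyclic GMP this receptor makes, was at 610, 645 and 669. For calcitonin gene-related peptide, the vasodilator of sensory fibres, the receptor subunits Calcrl and Ramp1 were at 85.1, 83.7 and 59.4 and at 129, 99.6 and 117 CPM. These values were level across the libraries within 1.5-fold.

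The transcription factors of smooth muscle had medians of 0.02 and 0.11 over 12 genes past the filter of 22, with 0 past 2-fold. Myocardin (Myocd) was at 165, 186 and 141 CPM and serum response factor (Srf) at 90.6, 74.7 and 65.6. Notch genes had medians of 0.04 and -0.01 over 10 genes past the filter of 17, with 0 past 2-fold in all members. In the smooth muscle-like cluster the median was 0.08 at 7 days and 0.20 at 14 days, and 2 of 10 genes were past 2-fold at 14 days, beside the 1.79% of all genes tested given above.

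Those 2 genes are targets of the Notch pathway. Heyl, a repressor induced by Notch3, had 20, 36 and 72 UMIs in the smooth muscle-like cluster, or 68.0, 96.9 and 150 CPM, a log2 ratio of 1.14 at 14 days (interval 0.41 to 1.94). Nrarp, a feedback inhibitor of the pathway, had 34, 64 and 124 UMIs, or 116, 172 and 259 CPM, a log2 ratio of 1.16 (0.61 to 1.76). Hes1, another target, was at 197, 204 and 353 CPM (log2 ratio 0.84 at 14 days, 0.40 to 1.30). These 3 targets were highest at 14 days. Notch3 itself, a gene of the rule, was at 1105, 1396 and 1689 CPM in the same cells. The ligand Jag1 was at 385, 339 and 386 CPM in all members. Hey2, also on the Notch list, did not rise and was at 228, 231 and 208 CPM in all members, lowest at 14 days.

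Hes1, Heyl and Nrarp were also read in other cells. In pericyte-rule cells Hes1 was at 80.1, 311 and 359 CPM, Heyl at 609, 360 and 698 and Nrarp at 64.1, 65.5 and 113, from at most 68 UMIs per library. For each of these genes the 14-day level was again the highest, while Heyl was lowest at 7 days. In endothelial cells defined by an analogous rule the 14-day log2 ratio of Hes1 was 0.18 and that of Nrarp -0.08. In fibroblast-rule cells, defined by Lum and Pdgfra, it was 0.62 for Hes1, -1.20 for Heyl and -1.45 for Nrarp. Over all kept cells that were not members it was 0.16, -0.40 and -0.95 for Hes1, Heyl and Nrarp. The fibroblast-rule cells also carried glial transcripts, with Fabp7 at 8202, 9007 and 4771 CPM and Apoe at 28514, 26000 and 16581. Their level of the fibroblast gene Dcn was 5916, 6673 and 12936 CPM. The part of this glial mix in their ratios was not tested, nor were the differences between cell types.

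Genes of the synthetic state, which smooth muscle takes on when it divides and lays down matrix, showed no common shift. Of 22 listed genes 7 passed the filter, with medians of -0.34 and -0.16, 1 higher and 2 lower at 7 days and 1 lower at 14 days. Thrombospondin 1 (Thbs1) had 59, 14 and 27 UMIs in member cells, or 162, 31.7 and 42.2 CPM. The naïve level was the highest, but 1 naïve cell held 35 of the 59 UMIs. Matrix Gla protein (Mgp), an inhibitor of calcification, was at 558, 247 and 451 CPM. Cyclin D1 (Ccnd1) was at 115, 249 and 162, and the cell cycle gene Mki67 had 0 UMIs in member cells.

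The matrix and basement membrane list had medians of -0.03 and 0.03 over 19 genes past the filter of 34, with 1 gene past 2-fold in each direction at 7 days and 1 lower at 14 days. Elastin (Eln), the main protein of the arterial elastic lamina, was at 154, 74.7 and 195 CPM, lowest at 7 days. Like Cnn1, Eln lay mostly in smooth muscle-like members with little Rgs5, described below, and the part of that mix was not tested. Lysyl oxidase (Lox), which cross-links elastin, was at 87.9, 86.0 and 37.5. Growth factor genes had medians of -0.03 and -0.07 over 22 genes past the filter of 36, with 2 higher and 1 lower at 7 days. The former were Smad7, the inhibitor of TGFβ signalling, at 38.5, 97.3 and 64.0 CPM and Hbegf, a ligand of the EGF receptor, at 33.0, 83.7 and 42.2. The latter was Ctgf, at 76.9, 36.2 and 53.1. Igfbp5, which binds insulin-like growth factors, was abundant and was at 2782, 4021 and 3547 CPM, a log2 ratio of 0.53 (interval 0.42 to 0.64) and 0.35 (0.24 to 0.46).

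Several immediate early genes, transcribed within minutes of a stimulus, were higher in the injured libraries. Of 12 genes past the filter of 26, 4 were at least 2-fold higher at 7 days and 4 at 14 days, beside 1.38% and 1.73% of all genes tested, and 0 were 2-fold lower. The medians were 0.41 and 0.64, with 9 and 11 of the 12 genes above naïve. Within the cluster 3 and 4 of 12 were higher, with medians of 0.41 and 0.55. The zinc finger factor Egr1 had 25, 124 and 223 UMIs, or 68.7, 281 and 348 CPM, a log2 ratio of 2.03 (interval 1.40 to 2.71) and 2.34 (1.74 to 3.00). The cells with an Egr1 UMI numbered 10, 28 and 50, and a single cell gave 44 of the 124 UMIs at 7 days. The nuclear receptor Nr4a1 was at 38.5, 118 and 130 CPM and the AP-1 component Junb at 38.5, 92.8 and 89.0. Among smooth muscle-like members Junb was at 44.2, 83.4 and 50.1 CPM, short of 2-fold at both times. Fos, the classic member of the group, was at 63.2, 104 and 108 CPM, short of 2-fold.

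Some heat shock genes were lower. Of 12 genes past the filter of 16, 3 were at least 2-fold lower at 7 days and 2 at 14 days, beside 0.757% and 0.594% of all genes tested, with medians of -0.56 and -0.70. The small chaperone Hspb1, which binds actin, had 345, 167 and 305 UMIs, or 948, 378 and 476 CPM, a log2 ratio of -1.33 (-1.60 to -1.06) and -0.99 (-1.22 to -0.77). The constitutive chaperone Hspa8 was at 1618, 1054 and 765 CPM and its co-chaperone Hsph1 at 126, 49.8 and 49.98. Among smooth muscle-like members the medians were -0.40 and -0.55, and 2 and 0 of 12 genes were past 2-fold. The naïve library was the highest for Hspb1, Hspa8 and Hsph1 in both groups of cells, whereas in smooth muscle-like members Hspa1b was at 88.4, 108 and 138 CPM. The median mitochondrial share of UMIs was 11.4%, 13.6% and 13.6% in member cells, and its part in the values of heat shock and immediate early genes was not tested.

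Circadian clock genes had the largest 14-day median of the 27 lists. Of 8 genes past the filter of 18, 2 were at least 2-fold higher at 7 days and 6 at 14 days, beside 1.38% and 1.73% of all genes tested, with medians of 0.58 and 1.70. Among smooth muscle-like members 2 and 5 of 8 were higher, with medians of 0.51 and 1.23. Dbp, a factor driven directly by the clock, had 11, 34 and 140 UMIs, or 30.2, 76.9 and 219 CPM, a log2 ratio of 1.35 (0.33 to 2.48) and 2.86 (1.97 to 3.89). Its relative Tef was at 30.2, 95.03 and 159 CPM and the period gene Per3 at 30.2, 47.5 and 158. The number of cells with a Dbp UMI was 9, 18 and 69. The repressor Nr1d1 was at 104, 118 and 220 CPM and Nr1d2 at 68.7, 99.6 and 222. Clock, of the activating arm, was at 173, 129 and 127. The naïve library was lowest and the 14-day library highest for Dbp, Tef, Per3, Nr1d1 and Nr1d2, and Clock had the opposite order of naïve and injured.

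**Figure D3:**
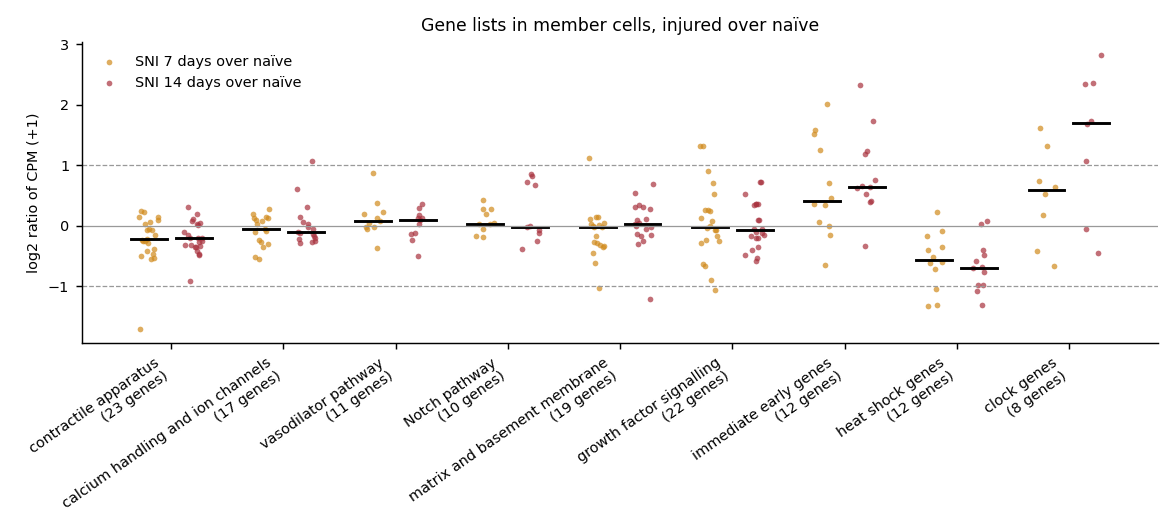
Each point is 1 gene past the level filter, at its log2 ratio of CPM (+1) in member cells, 7 days over naïve (ochre) and 14 days over naïve (red), grouped by list. Black bars are medians and dashed lines mark 2-fold. Clock and immediate early genes lie mostly above 0, heat shock genes below it and contractile genes slightly below it.

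The same 3 lists were read in other cell types. The clock genes had medians at 7 and 14 days of 1.94 and 2.08 in 95 pericyte-rule cells, 0.38 and 0.42 in 766 endothelial-rule cells, 0.62 and 1.24 in 352 fibroblast-rule cells and 0.66 and 0.96 in the Schwann cells. Over all kept cells that were not members they were 0.53 and 0.63. Heat shock genes had medians of -1.39 and -1.16 in pericyte-rule cells and -0.70 and -1.05 in endothelial cells. Their medians were -0.42 and -0.57 in fibroblast-rule cells and -0.45 and -0.50 in Schwann cells. Immediate early genes had medians of 0.15 and 0.52 in pericyte-rule cells and 0.32 and 0.48 in endothelial cells. Their medians were 0.14 and 0.77 in fibroblast-rule cells, which also carried the glial transcripts given above, and 0.16 and 0.48 in Schwann cells. The median of each list had the same sign in these other cells of the same libraries as in member cells, and no difference between cell types was tested. What belongs to a library and what belongs to the injury cannot be told apart.

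**Figure D4:**
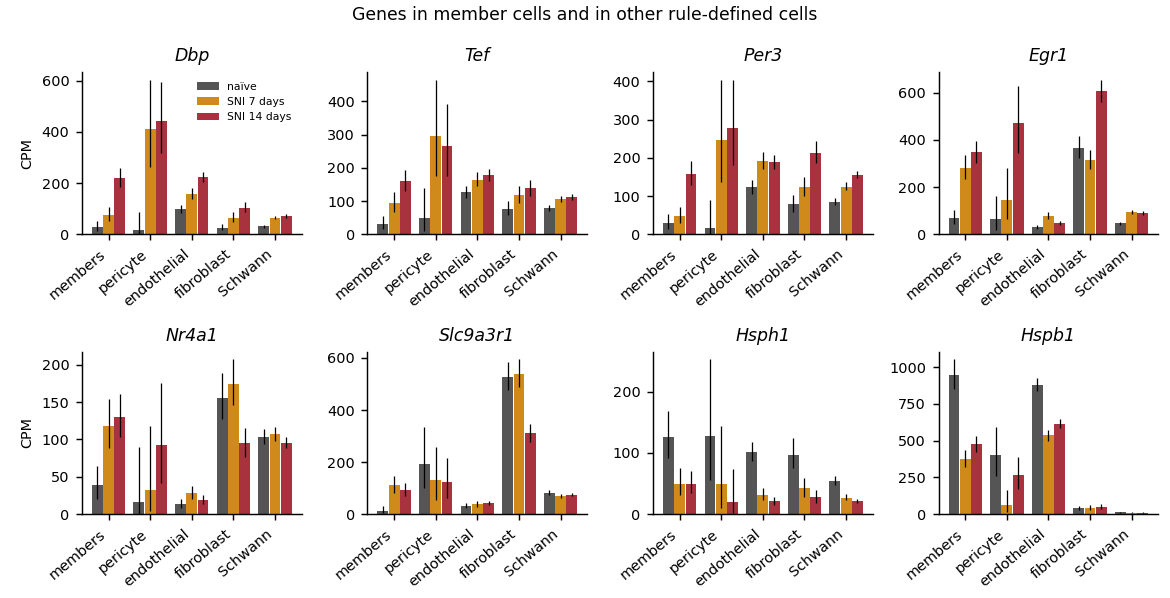
Bars are CPM of 8 genes in member cells and in pericyte-, endothelial-, fibroblast- and Schwann-rule cells of each library, with exact Poisson 95% intervals. Dbp, Tef and Per3 are higher in the injured libraries in all 5 groups of cells, while Slc9a3r1 is higher after injury in member cells. Slc9a3r1 is highest in fibroblast-rule cells, which also carry glial transcripts, and is lower there at 14 days.

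Single genes were named by rank, and had to be seen in 20% or more of the cells where they were higher. At both times 15 genes passed as higher and 3 as lower by this stricter rule. The gene ranked first was Slc9a3r1, a scaffold that anchors membrane transporters to the actin cortex. It had 5, 49 and 59 UMIs, or 13.7, 111 and 92.2 CPM, from 5, 23 and 43 cells. The log2 ratio was 3.01 at 7 days (interval 1.69 to 4.70) and 2.75 at 14 days (1.44 to 4.42), and 1 cell gave 18 of the 49 UMIs at 7 days. In the smooth muscle-like cluster it had 3, 20 and 42 UMIs. Elsewhere its log2 ratios were -0.55 and -0.64 in pericyte-rule cells, 0.22 and 0.32 in endothelial cells and -0.25 and -0.12 in Schwann cells. In fibroblast-rule cells they were 0.03 and -0.77, and over all cells that were not members -0.12 and -0.39. The difference between cell types was not tested.

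Others ranked high at both times were Egr1, Tef and Nr4a1, given above, and Camkk2, a kinase that activates AMPK, at 24.7, 70.1 and 70.3 CPM. The 3 lower genes were Hsph1, the mRNA export factor Alyref at 126, 54.3 and 57.8 CPM and the lectin Clec2d at 110, 52.0 and 51.6. At 7 days the lowest ratios were those of Rnd3, an antagonist of RhoA signalling, at 115, 29.4 and 60.9 CPM, Cnn1, the centrin Cetn2 at 85.1, 29.4 and 48.4, and Ckap5 at 60.4, 22.6 and 71.9. At 14 days they were those of Cacybp at 90.6, 61.1 and 29.7 CPM, Elof1 at 96.1, 58.8 and 34.4, lipoprotein lipase (Lpl) at 190, 99.6 and 68.7 and the glycogen regulator Ppp1r3c at 104, 61.1 and 40.6. Most of these genes had fewer than 50 UMIs in each library, so their ratios are wide.

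Glial transcripts were among the highest ratios and came from few cells. Apoe had 93, 1040 and 373 UMIs in member cells, but 1 cell gave 708 of them (68.1%) at 7 days and another 225 (60.3%) at 14 days. Fabp7 had 24, 263 and 242 UMIs, of which single cells gave 210 (79.9%) and 203 (83.9%). There were 3 members with at least 5 UMIs of Fabp7, of which 2 were called doublets. Without these 3 cells the log2 ratios of Apoe were -0.55 and -0.12 and those of Fabp7 -0.84 and -0.08, so that both were below naïve.

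Against cells of the other vascular types, the member cells stood out by the contractile genes that the rule is tied to, which is a description. Against pericyte-rule cells, which by their rule lack Myh11, 4.81% of 4012 genes were at least 2-fold higher in all 3 libraries and 5.28% lower. Of the contractile list 16 of 23 genes past the filter were higher and 0 lower. Against endothelial-rule cells 12.8% of genes were higher and 15.7% lower, with 23 of 23 contractile genes higher. Against fibroblast-rule cells 13.2% were higher and 13.4% lower, with 20 of 23 contractile genes higher. Genes outside the rule with the highest ratios to pericyte-rule cells were Pln, the protease Prss23 at 450, 310 and 319 CPM, the potassium channel Kcna5 at 242, 258 and 200, the calcium store protein Casq2 at 231, 208 and 173, Cdc42ep3 and Susd5. Each of these had 0 UMIs in pericyte-rule cells of each library.

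The smooth muscle-like and pericyte-like members also differed from each other. In the former 5.25% of 3903 genes were at least 2-fold higher in all 3 libraries and 8.30% lower. As the clusters were made from these genes, this is a description. Of the 24 contractile genes 14 were higher and 0 lower, with a median log2 ratio of 1.63. Of 17 pericyte markers 10 were lower (median -1.78), as were 8 of 9 interferon response genes (median -2.60) and 8 of 21 matrix genes.

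Pln marked the division. It had 404, 498 and 702 UMIs in smooth muscle-like members and 0 in pericyte-like members of each library. Set against a floor of 3 UMIs per library it was at least 32.0-fold, 24.0-fold and 78.7-fold higher in the naïve, 7-day and 14-day libraries. Kcna5, at 299, 307 and 267 CPM, Casq2 at 286, 248 and 232, and the olfactory receptor Olfr78 at 241, 296 and 205 also had 0 UMIs in pericyte-like members. Asb2 and Fbxl22, whose promoters are shown above, had 82, 96 and 88 UMIs and 63, 55 and 101 UMIs in smooth muscle-like members against 0. In all, 17 of the 25 genes ranked highest had 0 UMIs in the pericyte-like members.

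In the opposite direction Vtn, which encodes vitronectin, was at 91.8, 64.6 and 75.1 CPM in smooth muscle-like members and at 1632, 2063 and 1620 in pericyte-like ones. The interferon-induced gene Ifitm1 was at 10.2, 13.5 and 10.4 against 2333, 1933 and 2160. The potassium channel subunit Abcc9, partner of Kcnj8, was at 3.399, 8.07 and 14.6 against 802, 1041 and 906. In each library these values were more than 10-fold apart.

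Within the smooth muscle-like cluster the cells also differed in Rgs5, a brake on G protein signalling. An Rgs5 UMI was present in 63.6%, 79.3% and 68.8% of its members. To describe what went with it, a division chosen after the values were seen set 85 cells with at least 10 Rgs5 UMIs (26, 24 and 35 per library) beside 80 cells with 0 or 1 (30, 17 and 33). Their median UMIs were 4329, 7456 and 6495 against 4762, 6478 and 6258, and the part of depth was not tested. Of 1732 genes with a mean of at least 100 CPM, 1.73% were at least 2-fold higher with Rgs5 in all 3 libraries and 1.33% lower.

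The side with little Rgs5 held more of several contractile genes. Of 23 contractile genes past the filter 6 were lower with high Rgs5 and 0 higher. Cnn1 was at 17.1, 10.6 and 32.7 CPM in Rgs5-high cells and at 362, 225 and 361 in Rgs5-low cells. Tpm2 was at 1761, 1249 and 1348 against 3552, 2984 and 2984, and Ppp1r14a, an inhibitor of myosin phosphatase, at 137, 106 and 117 against 406, 384 and 371. The same direction in each library was a condition for naming these genes. Eln was at 34.2, 5.32 and 18.7 CPM against 319, 178 and 537, Sorbs2, an adaptor of the actin cytoskeleton, at 761, 877 and 919 against 3059, 3040 and 3397, and the transglutaminase Tgm2 at 0, 10.6 and 14.0 against 305, 131 and 223. The receptor subunit Ramp1 was at 68.4, 47.8 and 56.0 against 261, 225 and 261.

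Other genes were higher on the side with much Rgs5. Phlda1 was at 393, 362 and 513 CPM in Rgs5-high cells and at 29.0, 0 and 14.3 in Rgs5-low cells. The scavenging chemokine receptor Ackr3 was at 299, 191 and 219 against 14.5, 28.1 and 4.75, and Rgs4, a relative of Rgs5, at 1598, 1988 and 1521 against 790, 617 and 366. The chloride channel Ano1 was at 513, 494 and 509 against 94.2, 112 and 114. Of 9 pericyte markers past the filter 3 were higher with Rgs5, among them Higd1b at 675, 388 and 495 against 65.2, 74.8 and 52.3. The cells on both sides, with Acta2 in each, belong to the smooth muscle-like cluster.

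**Figure D5:**
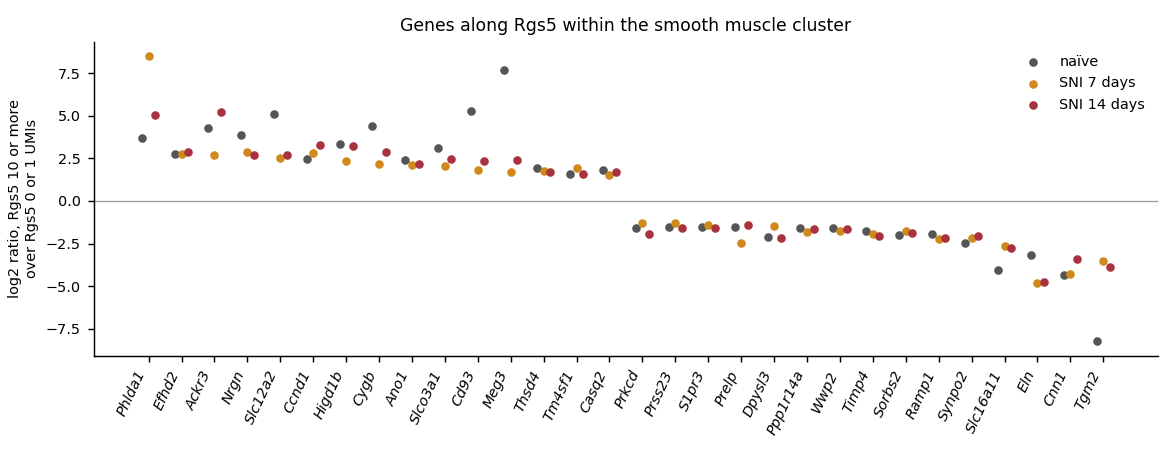
Points are log2 ratios of CPM (+1) between smooth muscle-like members with at least 10 Rgs5 UMIs and those with 0 or 1, 1 point per library, for the genes ranked highest and lowest without Rgs5 itself. The 3 libraries lie on the same side of 0 for every gene drawn, as the choice of genes required, with Cnn1, Eln, Sorbs2 and Tgm2 on the low side and Phlda1, Ackr3 and Ano1 on the high side.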

How the data were processed

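The deposited files hold UMI counts for each gene in each barcode of 3 libraries, made with the Chromium 3′ v3 kit and, per the submitters' processing notes, Cell Ranger 3.0.2 on mm10. The values are whole counts with no normalization, over 31053 genes. The strand setting and annotation release are not given in the sources used here. Cells with 500 or more genes and no more than 20% of UMIs from 13 mitochondrial genes were kept, the rule was applied, and UMIs of member cells were summed per library and expressed as CPM, multiplied to a total of 1000000. Because this scaling is relative, a few abundant transcripts can shift other levels. Intervals are exact Poisson (levels), exact binomial on the UMIs of a gene in 2 libraries (log2 ratios, without pseudocount) and Clopper-Pearson (shares). Calls used a pseudocount of 1 CPM, a 2-fold limit and a mean of at least 50 CPM. UMIs remove PCR copies, but intervals cover counting error only. A list median runs over its genes past the filter, with the pseudocount.

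All kept cells were scaled to 10000, log-transformed, reduced to 2000 variable genes and 30 components, linked to 15 neighbours and clustered at resolution 1 (scanpy 1.11.5, leidenalg 0.10.2), giving 26 clusters. Scrublet used an expected rate of 5%, and its calls were kept in the main values. The code ran on Python 3.11.15 with numpy 2.4.6, pandas 2.3.3 and scipy 1.17.1. The calls were tried on simulated sums with Poisson error alone and with changes larger than the 2-fold limit. That trial does not show how the calls behave near the limit or where single cells hold most UMIs of a gene. The members and the 27 gene lists (500 genes, 1 of them dropped for lying on more than 1 row) were chosen with earlier results of these data known, so no list gives independent support. Named genes were the rule genes, the 6 highest and 6 lowest at both times, the 4 highest and 4 lowest at each time, 1 or 2 per list with the largest ratio plus genes that define its role, and the 6 highest over pericyte-rule cells. Genes from the pericyte-like comparison and the Rgs5 division were chosen after their values were seen. A few genes that this rule names are not reported here. Alternatives changed the cell filter, doublets, rule, weighting and scaling.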

Additional observations from a re-analysis of the deposited data

How the results depend on the processing

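No paired analysis was possible because there was 1 library for naïve, 7 days and 14 days alike. The share of members among kept cells fell to 2.23%, 1.57% and 2.13% when cells needed 1000 or more genes and no more than 10% mitochondrial UMIs, which left 30, 17 and 29 members. It was 24.0%, 25.2% and 28.8% of vascular cells, 2.25%, 2.05% and 2.06% for the whole smooth muscle-like cluster, and 3.94% in the naïve library with cells thinned to 3000 UMIs, above the 14-day library (3.46%) and the 7-day library (3.22%), over the 1629, 1803 and 2685 cells deep enough. With the stricter filter 4138 genes were tested over fewer cells, beside 3701 in the main values. Of these 405 were higher and 458 lower at 7 days, 363 higher and 343 lower at 14 days, and 196 higher and 110 lower at both. The higher genes included 22 of the 51 of the main values at 7 days, 32 of the 64 at 14 days and 10 of the 22 at both. The lower genes included 14 of the 28, 12 of the 22 and 3 of the 4. With each cell weighing the same 3836 genes were tested. The counts higher and lower were then 88 and 67 at 7 days, 99 and 62 at 14 days, and 37 and 14 at both. A total without mitochondrial genes and markers of other cells gave 34 genes higher at both times, of 4176 tested.

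Glial transcripts reversed. Without the 3 members with at least 5 UMIs of Fabp7, a choice made once the data had been seen, log2 ratios at 7 and 14 days were -0.55 and -0.12 for Apoe, -0.84 and -0.08 for Fabp7, and the satellite glia list had medians of -0.55 and -0.08. The stricter filter gave -1.14 and -0.55 for Apoe and -2.64 and -0.67 for Fabp7. At 14 days Fabp7 was at -0.11 without Scrublet calls and at -0.04 without its top cell. Slc9a3r1, Egr1, Tef, Nr4a1 and Dbp were past 2-fold higher at both times under each of 11 alternatives, while Cnn1 ranged from -8.69 to -0.99 at 7 days and from -3.66 to -0.09 at 14 days. The whole-cluster share, the lists of the smooth muscle-like cluster and the Rgs5 alternatives were likewise added after the values were seen. In the Rgs5 comparison a limit on the Rgs5 share gave 37 genes higher, 26 of them among the 30, and 28 lower, 21 of them among the 23. Depth limits genes with few UMIs: the 5 naïve UMIs of Slc9a3r1 leave an interval of 4.46 to 32.1 CPM.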

Other observations

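Several lists of inflammation and metabolism were also compared between the libraries in member cells. Interferon response genes had 5 of 28 past the level filter, with median log2 ratios of -0.51 at 7 days and 0.11 at 14 days and 0 past 2-fold in either direction. Ifitm3, which restricts viral entry, was at 829, 450 and 611 CPM in naïve, 7-day and 14-day cells, and B2m, a subunit of class I molecules, at 214, 204 and 314. Of 33 genes of chemokines, cytokines and adhesion 5 passed the filter. Ccl2, Cxcl1, Cxcl2, Il6, Icam1 and Ptgs2 had 0 UMIs in the member cells of every library, and the chemokine Cxcl12 was at 132, 97.3 and 141 CPM. Respiratory chain genes had medians of -0.20 and -0.28 over 19 genes past the filter of 20, with 0 past 2-fold.

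The E-box CACGTG, the letters bound by the clock proteins, was looked for on both strands in the same promoter windows. It was in 8.09% of all RefSeq genes, in 11.6% of the genes above the level filter in member cells and in 1 of 8 clock genes above it, which was Tef.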
